A study of Mus musculus with 7 samples.

Results

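The 10 genes described here encode 5 matrix metalloproteinases (Mmp2, Mmp3, Mmp11, Mmp14 and Mmp15), the related metalloproteinases Adamts1 and Adam12, and their inhibitors Timp1, Timp2 and Timp3. They were taken by gene symbol from the 56440 gene models of the deposited expression table, where each symbol matched 1 model. RNA sequencing had been done on basal cells that were sorted by flow cytometry from fresh mouse mammary gland on day 2 of lactation. The 3 a3a6KO libraries are those of double mutants, by their name for integrins α3 and α6, whose titles mark them Blg positive, and the 4 Ctrl libraries those of controls marked Blg negative. Blg is taken to be a Cre transgene driven by the beta-lactoglobulin promoter, which is active in luminal cells, so basal cells would be neighbours of the cells it acts in. Carrying Blg and lacking the integrins go together in these groups and cannot be told apart. The alleles, strain, age and any pooling of animals were not stated in the labels. The submitters call the libraries biological replicates.

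Basal cells of the lactating gland are contractile myoepithelial cells that lie between the milk-secreting luminal cells and the basement membrane. Metalloproteinases are zinc enzymes that cut matrix proteins and shed proteins from cell surfaces. Most are made as inactive proenzymes, and TIMPs block the active enzymes by filling the active site. In the mammary gland they are known for roles in branching of the ducts and in the breakdown of basement membrane when the gland regresses after weaning. Their regulation lies partly in transcription and partly in activation of the proteins, which RNA levels do not show.

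Of the 10 genes, 0 differed between a3a6KO and Ctrl at an adjusted p under 0.05 (limma on log2(value + 1), Benjamini-Hochberg over 16889 genes, where 0% were called). No member was under an unadjusted p of 0.05, and across all genes 1068 were, or 6.32%. By the edgeR quasi-likelihood test 0 of 17228 genes passed, and 1031 had an unadjusted p under 0.05. DESeq2 called 73 of 13164 genes, or 0.555%, and 0 of the 10. All 10 genes passed the filter on low values (10 or more in 3 or more libraries) and were tested. The fold changes of 8 were above 0, the median log2 fold change (a3a6KO minus Ctrl) was 0.20, and the median over all genes tested was −0.0040, with 49.5% above 0. Without a3a6KO replicate 3 the fold changes of 6 of the 10 were above 0. The groups did not overlap in 1 of the 10, Timp2, where 7.51% of all genes tested had no overlap.

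The libraries held 9368418 to 18454773 reads in a3a6KO and 14480615 to 21548279 in Ctrl, and a3a6KO replicate 3 had the fewest. Itga3 and Itga6, which encode the subunits the mutants are named for, had 494 to 818 and 8343 to 9083 normalised read counts in a3a6KO, against 466 to 719 and 7764 to 10603 in Ctrl. These ranges overlapped in the basal cells, and whole-gene values would not necessarily show a deleted exon. The basal label fitted its 10 markers, whose mean log2(value + 1) was 15.3 to 15.5 in a3a6KO and 15.4 to 15.5 in Ctrl. In every library this was the highest mean of the 7 marker lists, and 3 of the 10 fold changes were above 0. Acta2, a contractile actin, averaged 609207 normalised read counts (reads divided by a size factor of the library) in a3a6KO and 558175 in Ctrl. Luminal transcripts were present in every library, with Csn2, a casein, at 44720 to 177460 in a3a6KO and 58533 to 431668 in Ctrl. Of the immune markers, the B cell gene Ms4a1 was at 0 reads in every library, and of the 7 lists no other marker was. The 11 fibroblast markers measured, of 12 listed, summed to 23480 to 32906 normalised read counts in a3a6KO and 18857 to 29200 in Ctrl. Endothelial markers summed to 9091 to 12584 in a3a6KO and 4103 to 7026 in Ctrl, and for these sums the groups did not overlap. In sorted bulk cells, fewer cells of a type and less RNA per cell cannot be told apart.

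Promoter sequences are shown for 4 genes, because Mmp3, Timp1 and Adamts1 varied most between libraries among the 8 genes with a RefSeq promoter, and Mmp14 is set beside them as a less variable protease. Each window is the 250 bases before the RefSeq start site (GRCm38.p6), written 5′ to 3′ on the gene's strand, and holds no exon of its gene in GENCODE M21. Capitals mark matches on either strand to TGANTCA, the site of AP-1, a transcription factor made of Fos and Jun proteins, to GGGCGG, the GC box, and to TATAAA, the TATA box. Of 32851 promoter windows of this length, 6.75% held an AP-1 match, 32.7% a GC box and 12.4% a TATA box.
Mmp3 (chr9:7445572-7445821, plus strand): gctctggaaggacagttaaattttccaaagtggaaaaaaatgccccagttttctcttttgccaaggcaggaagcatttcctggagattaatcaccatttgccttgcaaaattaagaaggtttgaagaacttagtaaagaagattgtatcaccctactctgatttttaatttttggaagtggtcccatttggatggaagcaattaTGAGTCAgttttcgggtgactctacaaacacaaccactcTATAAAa
Timp1 (chrX:20869916-20870165, plus strand): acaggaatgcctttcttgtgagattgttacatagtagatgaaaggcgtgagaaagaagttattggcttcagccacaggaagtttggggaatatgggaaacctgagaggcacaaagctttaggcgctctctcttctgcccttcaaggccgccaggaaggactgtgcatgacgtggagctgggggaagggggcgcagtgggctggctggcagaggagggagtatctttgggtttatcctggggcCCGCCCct
Adamts1 (chr16:85803114-85803363, minus strand): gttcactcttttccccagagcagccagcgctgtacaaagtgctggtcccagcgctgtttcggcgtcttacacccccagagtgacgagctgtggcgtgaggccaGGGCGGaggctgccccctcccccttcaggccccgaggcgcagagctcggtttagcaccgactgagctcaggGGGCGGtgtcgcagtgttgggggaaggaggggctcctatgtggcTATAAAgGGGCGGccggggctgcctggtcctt
Mmp14 (chr14:54431348-54431597, plus strand): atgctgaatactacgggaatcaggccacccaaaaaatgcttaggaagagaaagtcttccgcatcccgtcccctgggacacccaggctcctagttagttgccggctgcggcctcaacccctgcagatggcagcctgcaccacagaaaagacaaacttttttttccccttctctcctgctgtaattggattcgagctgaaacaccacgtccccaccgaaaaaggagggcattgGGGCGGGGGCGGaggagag

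The Mmp3 window held 1 AP-1 match, which starts 46 bases before the start site, 1 TATA box and no GC box. In this window 37.6% of the bases were G or C. The Adamts1 window held 3 GC boxes and 1 TATA box, with 65.6% G or C. The TATA box matches differ in position, and start 7 bases before the start site in Mmp3 and 32 in Adamts1. The Timp1 window held 1 GC box and the Mmp14 window 2, next to each other and not overlapping. No AP-1 match was found in the windows of the other 7 genes with a promoter. A match says only that the letters occur there. For Timp1 the deposited gene model begins 1181 bases before the RefSeq start site, and the window lies within that stretch.

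Levels were compared between genes after division by exon length, taken as the union of GENCODE M21 exons. Timp2 had the highest mean, at 5599 ± 314 normalised read counts per kb in a3a6KO (SD, n = 3) and 5007 ± 179 in Ctrl (SD, n = 4). Timp3, a TIMP that binds to the matrix, followed among the inhibitors with 3076 ± 429 per kb in a3a6KO and 2719 ± 445 in Ctrl. Among the proteases Adamts1 and Mmp2 came next, with 3765 ± 3275 and 2147 ± 677 per kb in a3a6KO, and 2492 ± 992 and 1814 ± 351 in Ctrl.

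Mmp14 averaged 573 ± 191 per kb in a3a6KO and 531 ± 89.1 in Ctrl, and Mmp3 236 ± 111 and 161 ± 127. The other 4 genes averaged at most 75.7 per kb in a3a6KO and 43.7 in Ctrl, and Adam12 was the lowest, at 12.9 ± 5.21 in a3a6KO and 6.84 ± 4.49 in Ctrl. Over the 7 libraries, the range of Timp2 did not overlap that of Timp3, nor Mmp2 that of Mmp14, Mmp14 that of Mmp3, or Mmp15 that of Adam12. The range of Adamts1 overlapped those of Timp2, Timp3 and Mmp2, and the range of Timp3 overlapped that of Mmp2. The ranges of Mmp3, Mmp11, Timp1 and Mmp15 overlapped one another, and that of Timp1 also overlapped that of Adam12. The order within these sets lies inside their spread. The transcripts of the inhibitors Timp2 and Timp3 were thus above those of Mmp14 and Mmp3 in every library on this scale.

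**Figure D1:**
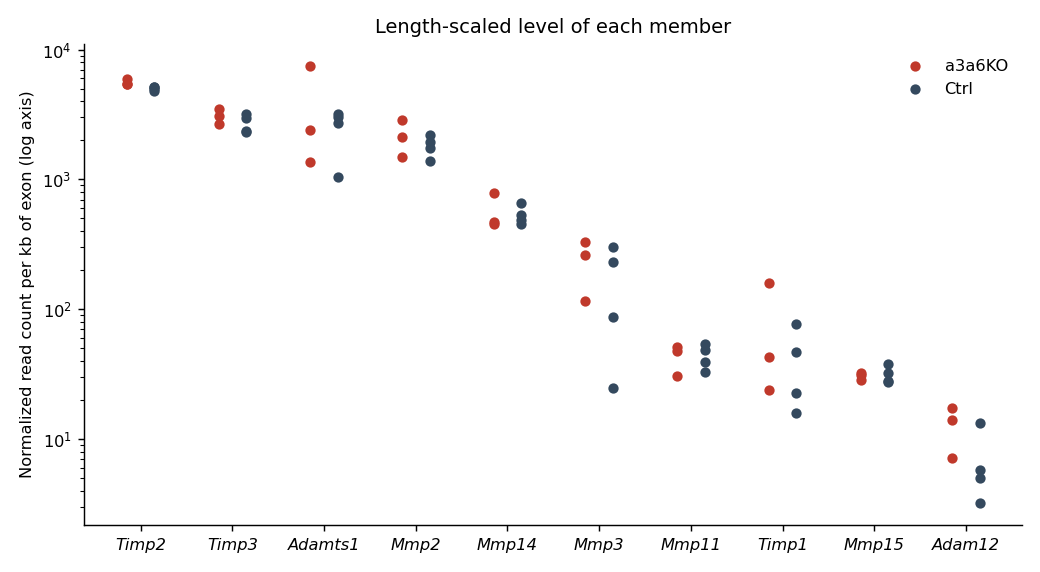
The length-scaled level of each of the 10 genes, in normalised read counts per kb of exon on a log axis, with 1 point per library (a3a6KO left in red, Ctrl right in blue). Timp2 has the highest group means, at 4776 to 5960 per kb over the 7 libraries, Adamts1 in a3a6KO replicate 3 is the highest single point at 7498, and Adam12 has the lowest means, at 3.21 to 17.3.

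Among the secreted proteases, Mmp2 (gelatinase A, which cuts collagen IV and denatured collagen; identifier GSMG0037619, mm10 chromosome 8, 92827297 to 92853421, plus strand) had 9588, 7093 and 5032 normalised read counts in a3a6KO replicates 1 to 3. It had 7437, 6549, 4634 and 5844 in Ctrl replicates 1 to 4. The a3a6KO replicate 1 was the highest and Ctrl replicate 3 the lowest, and the groups overlapped. Its log2 fold change was 0.21 (SE 0.24, 95% interval −0.32 to 0.75, limma adjusted p = 0.892). It was −0.013 without a3a6KO replicate 1.

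Mmp3 (stromelysin-1, a protease of broad range that also activates other proenzymes; GSMG0039121, chromosome 9, 7445822 to 7455975, plus strand) varied most of the 10 genes. It had 598, 207 and 468 normalised read counts in a3a6KO and 44.2, 157, 541 and 420 in Ctrl. The lowest and highest libraries differed 13.5-fold, and among the controls replicates 1 and 2 were low and replicates 3 and 4 high. The log2 fold change was 0.95 (SE 0.79, 95% interval −0.83 to 2.73, limma adjusted p = 0.861), and it was 0.54 in edgeR and DESeq2. Leaving out 1 library gave 0.23 (without Ctrl replicate 1) to 1.43 (without Ctrl replicate 3). Among the controls, the luminal, immune and adipocyte lists were also high in replicates 3 and 4. The controls split in the same way over 13539 to 14369 genes per pair of libraries. Set against counting error, the chi-square per degree of freedom was 35.3 between Ctrl replicates 1 and 2 and 49.4 between 3 and 4. Across these pairs it was 96.2 to 126. The mean log2(value + 1) of the 7 immune markers tested was 6.17, 6.01 and 7.41 in a3a6KO replicates 1 to 3 and 5.63, 6.04, 7.32 and 7.24 in Ctrl replicates 1 to 4. For the adipocyte markers it was 9.85, 7.66 and 9.95 in a3a6KO and 8.58, 7.81, 10.6 and 10.3 in Ctrl, and for the luminal markers 11.9, 12.4 and 13.3 in a3a6KO and 12.6, 12.1, 13.6 and 14 in Ctrl. In a3a6KO replicate 1, where Mmp3 was highest, the immune mean was near that of Ctrl replicate 2. The luminal mean there was the lowest of the 7 libraries, and the adipocyte mean was near that of a3a6KO replicate 3. The immune list was uneven there, with Cd74, an antigen presentation gene, at 2047 and Csf1r, a macrophage receptor, at 31.5, its lowest value. The mean log2(value + 1) of the 11 fibroblast markers was 9.11, 9.4 and 9.38 in a3a6KO and 8.76, 8.72, 9.84 and 8.92 in Ctrl. With this fibroblast mean as a covariate, the log2 fold change of Mmp3 was 0.54 (SE 0.74, limma adjusted p = 0.933). The part of any of these cell types in the Mmp3 values was not tested.

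Mmp11 (stromelysin-3, which is activated inside the cell by furin; GSMG0004263, chromosome 10, 75923224 to 75932502, minus strand) had 132, 142 and 85.4 in a3a6KO. It had 136, 150, 90.9 and 109 in Ctrl. The a3a6KO replicate 3 was the lowest library, and the groups covered nearly the same range. On the log2 scale the fold change was −0.026 (SE 0.26, 95% interval −0.61 to 0.56), with a limma adjusted p of 0.989.

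The membrane-type proteases were measured in Mmp14 and Mmp15. Mmp14 (MT1-MMP, which cuts collagen at the cell surface and activates proMMP2; GSMG0011570, chromosome 14, 54431598 to 54445364, plus strand) had 2699, 2822 and 4726 in a3a6KO and 3907, 2687, 2907 and 3148 in Ctrl. The a3a6KO replicate 3 was high, while the other a3a6KO libraries lay between Ctrl replicates 2 and 3. Its log2 fold change was 0.08 (SE 0.22, 95% interval −0.42 to 0.57, limma adjusted p = 0.954), and it was −0.18 without a3a6KO replicate 3. Mmp15 (MT2-MMP; GSMG0037664, chromosome 8, 95352296 to 95374293, plus strand) had 154, 173 and 167 in a3a6KO and 173, 149, 206 and 151 in Ctrl. All 3 a3a6KO libraries lay inside the range of the controls, with a log2 fold change of −0.031 (SE 0.18, 95% interval −0.43 to 0.37, limma adjusted p = 0.979).

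**Figure D2:**
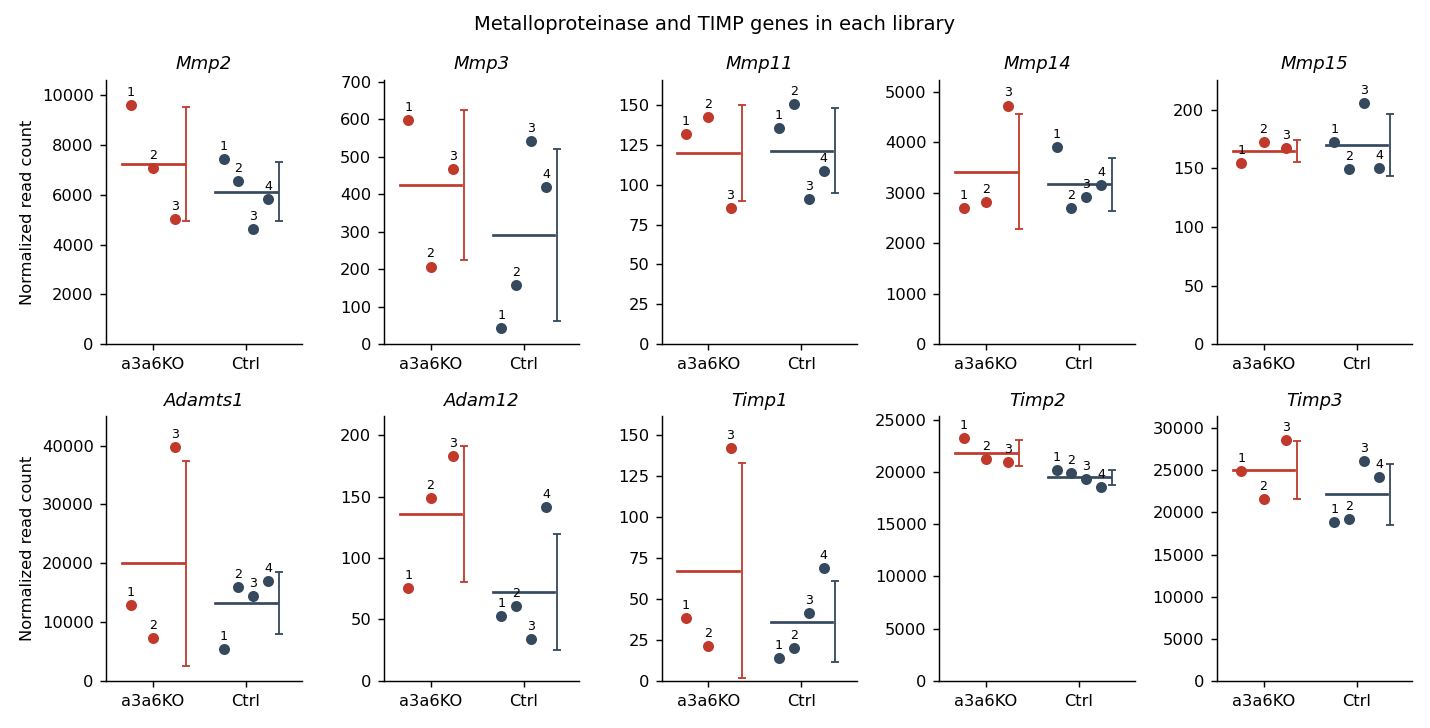
Normalised read counts of the 10 genes in each library, with 1 panel per gene and axes that start at 0. Points carry the replicate number, horizontal lines are group means and bars 1 SD (a3a6KO red, n = 3; Ctrl blue, n = 4). For Timp2 all a3a6KO points lie above all Ctrl points, and for Adamts1 and Timp1 a3a6KO replicate 3 lies far above the rest.

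Adamts1 (a secreted protease that cuts the proteoglycans aggrecan and versican; GSMG0015998, chromosome 16, 85793838 to 85803114, minus strand) had 12843, 7284 and 39753 normalised read counts in a3a6KO. It had 5492, 15947, 14397 and 17014 in Ctrl. The a3a6KO replicate 3 stood above every other library, a3a6KO replicate 2 was below 3 of the 4 controls, and Ctrl replicate 1 was the lowest. Between the groups the log2 fold change was 0.36 (SE 0.58, 95% interval −0.95 to 1.66, limma adjusted p = 0.923). Leaving out a3a6KO replicate 3 gave −0.32 and leaving out Ctrl replicate 1 gave −0.024, so its sign depended on single libraries.

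Adam12 (meltrin alpha, a membrane protease with a disintegrin domain; GSMG0036784, chromosome 7, 133883199 to 134225097, minus strand) had the largest fold change of the 10 in limma, though Mmp3 had a larger one with library weights and without Ctrl replicate 3, a3a6KO replicate 2 or a3a6KO replicate 3. It had 75.4, 149 and 183 normalised read counts in a3a6KO and 53.2, 60.6, 34.0 and 141.5 in Ctrl. Ctrl replicate 4 lay near the upper a3a6KO libraries, and a3a6KO replicate 1 lay between the low controls and Ctrl replicate 4. Its log2 fold change was 1.01 (SE 0.48, 95% interval −0.078 to 2.09), or 2.01-fold, with an unadjusted p of 0.0651 and a limma adjusted p of 0.789. Leaving out 1 library gave 0.72 (without Ctrl replicate 3, limma adjusted p = 0.803) to 1.39 (without Ctrl replicate 4, limma adjusted p = 0.462), and library weights gave 0.68 (limma adjusted p = 0.693).

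Adam12 reads numbered 37 to 187 per library, and 8 other gene models overlap it on the same strand, each with at most 15.8 normalised read counts. Ctrl replicate 4 and all a3a6KO libraries were also the libraries with the highest summed endothelial and pericyte markers. The pericyte markers summed to 2988, 4073 and 3530 in a3a6KO and to 1916, 1950, 2701 and 3514 in Ctrl. Their part in the Adam12 values was not tested.

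The inhibitors were measured in Timp1, Timp2 and Timp3. Timp1 (a soluble inhibitor induced in inflammation and injury; GSMG0041633, chromosome X, 20868985 to 20874735, plus strand) had the lowest counts of the 3, with 38.1, 21.1 and 142 in a3a6KO and 14.1, 20.2, 41.3 and 68.8 in Ctrl. The a3a6KO replicate 3 was the highest and Ctrl replicate 1 the lowest, 10.1-fold apart, and the other a3a6KO libraries lay among the controls. The log2 fold change was 0.68 (SE 0.71, 95% interval −0.92 to 2.28, limma adjusted p = 0.886), and it was −0.084 without a3a6KO replicate 3. Timp1 rested on 14 to 91 reads per library. It lies inside Syn1 on the opposite strand, whose model had at most 3.03 normalised read counts in any library.

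Timp2 (the inhibitor that joins MMP14 and proMMP2 in the complex that activates MMP2; GSMG0007696, chromosome 11, 118301065 to 118355506, minus strand) had the narrowest range of the 10. It had 23222, 21224 and 20996 normalised read counts in a3a6KO and 20182, 19904, 19328 and 18609 in Ctrl. All a3a6KO values were above all Ctrl values. The log2 fold change was 0.16, a small difference (SE 0.13, 95% interval −0.14 to 0.46, limma adjusted p = 0.858), or 1.12-fold, and it was 0.06 under quantile normalization. The means were 21814 ± 1225 in a3a6KO (SD, n = 3) and 19506 ± 696 in Ctrl (SD, n = 4).

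Timp3 (an inhibitor that also blocks ADAM and ADAMTS enzymes; GSMG0003352, chromosome 10, 86300412 to 86349505, plus strand) had 24978, 21594 and 28572 in a3a6KO. It had 18895, 19268, 26147 and 24261 in Ctrl. The a3a6KO libraries all lay above Ctrl replicates 1 and 2, and they mixed with Ctrl replicates 3 and 4. Its log2 fold change was 0.18 (SE 0.18, 95% interval −0.23 to 0.59, limma adjusted p = 0.877). Timp3 lies inside Syn3 on the opposite strand, whose model had at most 5.66 normalised read counts in any library.

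**Figure D3:**
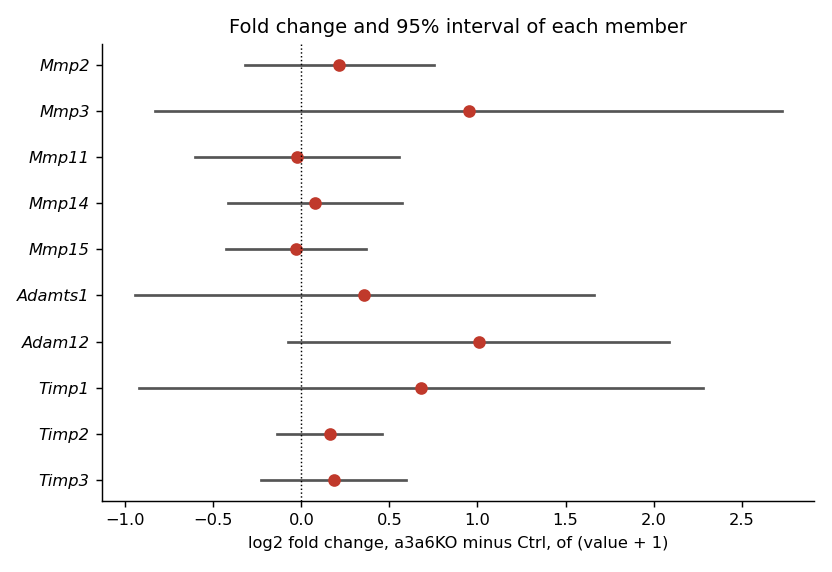
The log2 fold change of each gene, as a3a6KO minus Ctrl of log2(value + 1) (points), with its 95% interval from limma (lines). All 10 intervals include 0, and that of Timp2, −0.14 to 0.46, is the narrowest.

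The intervals differ in what they leave room for. For Timp2, Mmp15, Timp3, Mmp14, Mmp2 and Mmp11 the interval stayed within a log2 fold change of 1 on both sides. For Mmp3, Timp1, Adamts1 and Adam12 it reached past 1, so that changes of that size lay inside their intervals.

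The balance of protease and inhibitor transcripts was described as log2 ratios within each library, which do not depend on library scaling. The ratio of Mmp2 to Timp2 was −1.64 ± 0.40 in a3a6KO (SD, n = 3) and −1.69 ± 0.26 in Ctrl (SD, n = 4). That of Mmp14 to Timp2 was −2.72 ± 0.50 in a3a6KO and −2.64 ± 0.22 in Ctrl. That of Mmp14 to Timp3 was −2.91 ± 0.31 in a3a6KO and −2.81 ± 0.38 in Ctrl. In these 3 ratios the group means differed by less than either SD, and the groups overlapped.

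The ratio of Mmp2 to Mmp14, the enzyme and its activator, spread widely in the mutants, with 1.83, 1.33 and 0.09 in a3a6KO replicates 1 to 3. In Ctrl it was 0.93, 1.29, 0.67 and 0.89. The a3a6KO replicate 1 was the highest and a3a6KO replicate 3 the lowest library, with the controls between the extremes. The ratio of Adamts1 to Timp3 was −0.96, −1.57 and 0.48 in a3a6KO, against −1.78, −0.27, −0.86 and −0.51 in Ctrl. On these counts, not scaled for length, Adamts1 exceeded Timp3 only in a3a6KO replicate 3. Per kb of exon it also did so in Ctrl replicate 2 (3008 against 2366) and Ctrl replicate 4 (3209 against 2979).

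The 10 genes differed in their spread over the 7 libraries. The highest minus the lowest log2(value + 1) was 0.32 for Timp2, 0.46 for Mmp15, 0.60 for Timp3, 0.81 for Mmp11 and Mmp14, and 1.05 for Mmp2. It was 2.4 for Adam12, 2.86 for Adamts1, 3.25 for Timp1 and 3.73 for Mmp3. The median over all genes tested was 0.97, and 3.69% of all genes had a smaller range than Timp2 while 96.7% had a smaller one than Mmp3. Adamts1, with 92.8% below it, is highly abundant, and 5470 to 22491 reads per library lay behind its values.

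**Figure D4:**
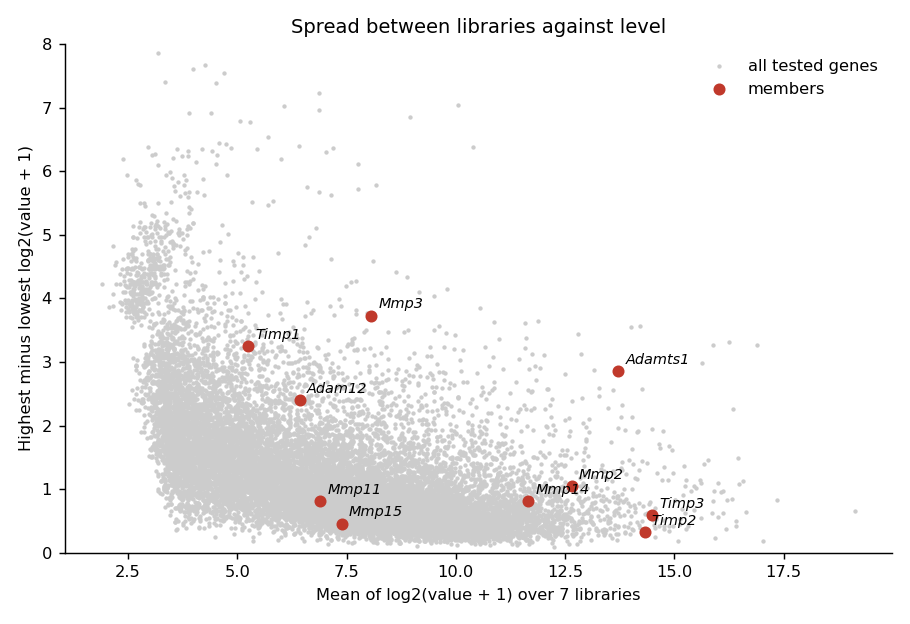
Spread between libraries (highest minus lowest log2(value + 1)) against the mean log2(value + 1) for the 16889 genes tested (grey) and the 10 metalloproteinase and TIMP genes (red). Adamts1 and Mmp3 lie above most genes of similar level, and Timp2 and Mmp15 low; 12 genes above 8 are not drawn.

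The library that was highest or lowest was often the same. Of the 10 genes, 5 were highest in a3a6KO replicate 3 (Mmp14, Timp1, Timp3, Adamts1 and Adam12), which was the highest library for 21.7% of all genes tested. Another 3 were highest in a3a6KO replicate 1 (Mmp2, Mmp3 and Timp2), which was the highest library for 11.6% of all genes tested. Ctrl replicate 1 was the lowest for 4 of the 10 and for 18.5% of all genes. Timp1, Timp3 and Adamts1 were both highest in a3a6KO replicate 3 and lowest in Ctrl replicate 1, as were 7.27% of all genes. The a3a6KO replicate 3 had the fewest reads, at 9368418, and a3a6KO replicate 2 the next fewest, at 10861835. The latter was the highest library for 0 of the 10 and for 13.3% of all genes. It was the lowest for 0 of the 10 and for 13.3% of all genes. The part of read depth in these extremes was not tested.

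Other genes of the families were read from 4 lists, of which 36 genes were tested and 0 passed in limma, with 25 fold changes above 0, where 49.5% of all genes were, and no overlap of the groups in 5, where 7.51% of all genes had none. Of 17 other matrix metalloproteinases 5 were tested, and 1 had a fold change above 0. Mmp17 (MT4-MMP, anchored by a lipid) had 379, 376 and 445 normalised read counts in a3a6KO and 275, 315, 278 and 334 in Ctrl. Its groups did not overlap (log2 fold change 0.41, SE 0.15, limma adjusted p = 0.694). The macrophage elastase Mmp12 averaged 83.2 in a3a6KO and 87.7 in Ctrl, Mmp19 11.4 and 18.2, and Mmp23 94.2 and 99.0. The list's median was −0.32, with 0.45 without a3a6KO replicate 2 and −0.64 without Ctrl replicate 1. Mmp1a, Mmp10 and Mmp20 were at 0 reads in every library. The gelatinase Mmp9 was at most 12.45 in a3a6KO and 4.54 in Ctrl.

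Of 11 other ADAM genes 8 were tested, 6 had fold changes above 0, and their median was 0.13, or −0.0205 without a3a6KO replicate 3. Adam17, the enzyme that releases TNF and EGF receptor ligands from the cell surface, averaged 742 in a3a6KO and 608 in Ctrl (log2 fold change 0.28, SE 0.16, limma adjusted p = 0.797). Adam15 and Adam9, the most abundant of the list before length scaling, averaged 1904 and 1152 in a3a6KO and 1773 and 1027 in Ctrl. Adam11 averaged 24.5 in a3a6KO and 32.4 in Ctrl.

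Of 18 other ADAMTS genes 12 were tested, and 10 had fold changes above 0, with a median of 0.68 and no overlap of the groups in 3 (Adamts3, Adamts10 and Adamts17), beside the 49.5% and 7.51% of all genes. The median was 0.44 to 0.76 when 1 library was left out, and lowest without Ctrl replicate 2. It was 0.45 without a3a6KO replicate 1 or 3. Adamts3, a procollagen N-proteinase that also activates VEGF-C, had 381, 348 and 479 normalised read counts in a3a6KO and 102, 123, 139 and 241 in Ctrl. Every a3a6KO library lay above every control, and the log2 fold change of 1.47 had an SE of 0.28 and a limma adjusted p of 0.515. DESeq2 called Adamts3 (log2 fold change 1.40, adjusted p = 0.00423), and edgeR did not (adjusted p = 0.526). No other gene of the 4 family lists passed in DESeq2. Adamts17 had 86.2, 83.1 and 74.7 in a3a6KO and 24.1, 12.1, 8.26 and 46.9 in Ctrl, again with no overlap (2.07, SE 0.52, limma adjusted p = 0.551). Adamts7 averaged 91.8 in a3a6KO and 55.0 in Ctrl. Adamts2, another procollagen N-proteinase, had nearly equal means of 1625 in a3a6KO and 1604 in Ctrl. Adamts4, an aggrecanase, had the same highest and lowest library as Adamts1, with 690, 819 and 4076 in a3a6KO and 380, 750, 799 and 1961 in Ctrl.

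Endothelial markers, like Adamts3 and Adamts17, had higher means in a3a6KO than in Ctrl. All 10 had fold changes above 0 (median 1.02), where 49.5% of all genes tested did. The groups did not overlap in 8, where 7.51% of all genes had no overlap. DESeq2 called 7, where it called 0.555% of all genes it tested. Pecam1, an adhesion protein of endothelial cells, averaged 1771 in a3a6KO and 888 in Ctrl (limma adjusted p = 0.532, DESeq2 adjusted p = 0.0163). The pericyte markers had a median of 0.53 with 9 of 9 above 0, and the fibroblast markers 0.21 with 8 of 11. Their part in the ADAMTS values was not tested. The luminal markers had a median of −0.62, the basal markers −0.065, the immune markers −0.23 and the adipocyte markers −0.062, and 0 markers of the 7 lists passed in limma.

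Of 13 other regulators of these proteases 11 were tested, 8 had fold changes above 0, and the median was 0.35, or 0.59 without Ctrl replicate 4. Reck, a membrane-anchored inhibitor of metalloproteinases, had 1674, 1734 and 1237 normalised read counts in a3a6KO and 1161, 981, 750 and 1256 in Ctrl. The a3a6KO replicate 3 lay just under Ctrl replicate 4, so the groups overlapped (log2 fold change 0.59, SE 0.20, limma adjusted p = 0.691). Serpine2, an inhibitor of serine proteases, had 283, 272 and 272 in a3a6KO and 155, 123, 253 and 197 in Ctrl, with no overlap (0.65, SE 0.24, limma adjusted p = 0.722). Bsg, an inducer of metalloproteinases, averaged 4272 in a3a6KO and 3839 in Ctrl, and Lrp1, a receptor that clears proteases from the matrix, 1466 and 1862. Plasminogen and A2m were at 0 reads in every library.

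**Figure D5:**
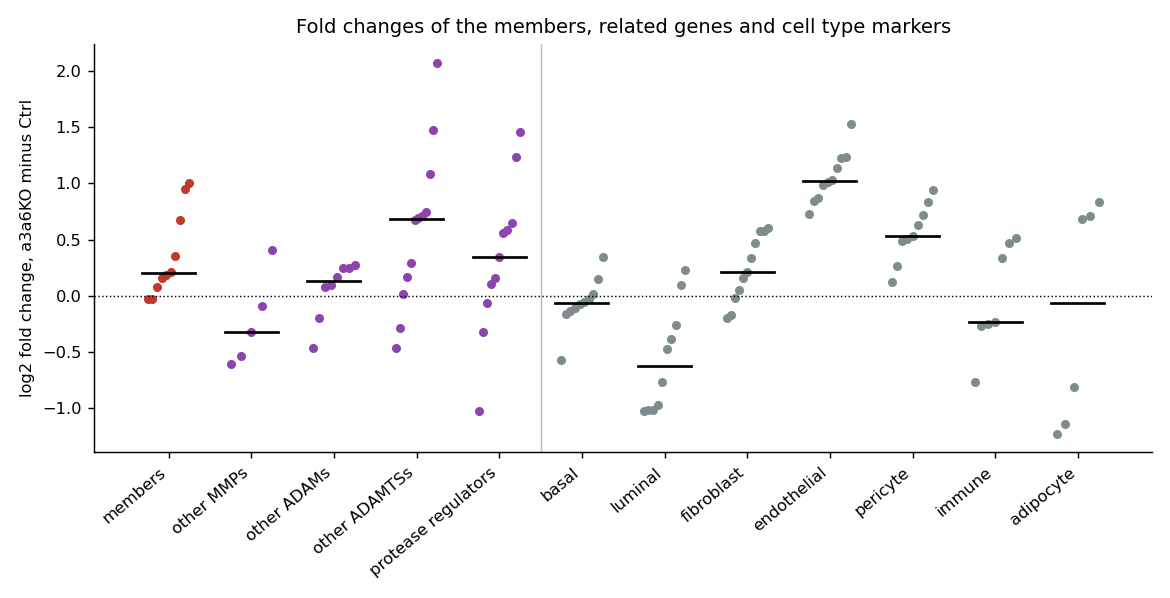
The log2 fold changes, a3a6KO minus Ctrl, of the tested genes of each list (points), with the median of each list as a black line. The 10 metalloproteinase and TIMP genes are at the left (median 0.20), related genes in purple, and cell type markers in grey, where all 10 endothelial markers lie above 0 (median 1.02).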

How the data were processed

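Basal cells of 3 a3a6KO and 4 Ctrl samples were sequenced from total RNA, with SMARTer v4 libraries per the labels' protocols. The deposited table gives a signal per gene and library, which its title calls DESeq2-normalized by the authors. The submitters' processing notes list STAR 2.4.0, FastQC, Picard, SAMtools and DESeq2 without roles, and build mm10. The sources used here do not give the read counter or its strand setting. The design text speaks of biological replicates, and replicate numbers here follow accession order and only name libraries.

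In each library all values were whole multiples of 1 step, within 0.05 of a read (100% of values), and these reads entered the count tests. Among reads per gene from 1 to 20, the even values had a share of 61.8% to 63.8%, and in the count tests each unit was taken as 1 read. No pair of same-group libraries was 1 library deposited again: their counts gave a chi-square per degree of freedom of 35.3 to 126, set against counting error only.

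The groups were compared with limma 3.58.1 (R 4.3.3), with a mean-variance trend, on log2(value + 1). The filter kept 16889 genes that reached 10 in 3 or more libraries. P-values are two-sided and were adjusted by Benjamini-Hochberg, and calls needed an adjusted p under 0.05. This scale understates changes of low genes. Alternatives were edgeR 4.0.16 and DESeq2 1.42.0 on the reads, other pseudocounts, filters and scalings, library weights, a fibroblast covariate and leaving out each library. The fits were tested on simulated data. Exon lengths came from GENCODE M21 and promoters from RefSeq (GRCm38.p6), where 8 of 10 genes matched and Mmp2 and Adam12 are named only. The members and lists were chosen with earlier results of these data known. By rule, each family list names the 3 genes with the smallest p and the 2 with the highest level, and each marker list is given by its sums or median and at most 3 of its most abundant genes. One gene that the rule names is not reported here. Genes named outside the rule (Mmp9, Adamts10, Furin, Plaur, Fosl1, Ms4a1, those at 0 and overlapping models) were chosen after their values were seen.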

Additional observations from a re-analysis of the deposited data

How the results depend on the processing

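The number of the 10 genes past the threshold was 0 under all 17 alternatives, with adjusted p-values of 0.462 or more for each gene. Across all genes, limma and edgeR called 0 under every alternative and DESeq2 73. Of 169 refitted fold changes 14 turned sign, in 6 genes, and those of Mmp3, Adam12, Timp2 and Timp3 kept theirs. Timp1 did not pass the stricter filter of at least 50 in 3 libraries. Library weights gave 0.021 for Mmp11, −0.031 for Mmp14 and −0.040 for Adamts1, and the fibroblast marker mean as a covariate gave 0.105 for Mmp11. Leaving out 1 library gave −0.17 to 0.20 for Mmp11, −0.18 to 0.22 for Mmp14, −0.088 to 0.065 for Mmp15, −0.013 to 0.45 for Mmp2, −0.084 to 1.26 for Timp1, 0.23 to 1.43 for Mmp3, 0.72 to 1.39 for Adam12 and −0.32 to 0.90 for Adamts1. The signs turned for Mmp14, Timp1, Adamts1 and Mmp11 without a3a6KO replicate 3, for Mmp2 and Mmp15 (0.016) without a3a6KO replicate 1, for Mmp15 without Ctrl replicate 3, for Adamts1 (−0.024) and Mmp11 (0.035) without Ctrl replicate 1, and for Mmp11 (0.085) without Ctrl replicate 2. Beyond the libraries left out, the cause was not tested. Medians and counts of the lists without single libraries were added after the data were seen. They gave −0.639 to 0.45 for the other matrix metalloproteinases and −0.0205 to 0.245 for the other ADAM genes, where the sign turned without a3a6KO replicate 2 and replicate 3 in that order. The median of the 10 genes was 0.12 to 0.25 over the alternatives. No paired analysis was possible because the labels give no replicate numbers. The fewest reads in a library were 14 for Timp1, 37 for Adam12, 44 for Mmp3 and 48 for Mmp11.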

Other observations

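Among the other regulators of proteolysis, Plaur, the receptor of urokinase, had 411, 411 and 2724 normalised read counts in a3a6KO replicates 1 to 3 and 134, 242, 441 and 819 in Ctrl replicates 1 to 4. Its highest library, a3a6KO replicate 3, and its lowest, Ctrl replicate 1, were those of Timp1 and Adamts1. Fosl1, which encodes a subunit of AP-1, showed the same extremes, with 350, 128 and 2530 in a3a6KO and 45.2, 141, 311 and 734 in Ctrl. Plaur, Fosl1 and Furin were chosen after their values were seen. Of the 36 related genes tested, 8 were highest in a3a6KO replicate 3 and lowest in Ctrl replicate 1, as were 7.27% of all genes tested. Furin, which activates Mmp11 and Mmp14 proenzymes, had 715, 247 and 292 in a3a6KO and 465, 474, 1295 and 1152 in Ctrl, and its log2 fold change was −1.02 (SE 0.48, adjusted p = 0.785 by limma). The a3a6KO replicates 2 and 3 lay under all controls, and a3a6KO replicate 1 lay between the lower and the higher controls.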
